A study of Homo sapiens with 12 samples.

Results

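Venetoclax added to eliglustat was followed in MV-4-11 cells by setting the 3 libraries of cells given both drugs (Comb) against the 3 libraries of cells given eliglustat without venetoclax (ELI). These are 6 of 12 libraries, and the other groups of the experiment are venetoclax alone (ABT, 3 libraries) and the vehicle (DMSO, 3 libraries), all taken at 48 h. MV-4-11 is an established myelomonocytic leukemia line that carries a KMT2A fusion and a duplicated stretch in the receptor kinase FLT3, and its genotype is labelled WT in every group, so all 12 libraries share these lesions. The sources used here give no drug doses. Of 20036 genes in the deposited table, 9959 reached 1 FPKM (fragments per kilobase of gene model, scaled to the fragments of the library) in at least 3 of 12 libraries and were tested. Differences are given on the log2(FPKM + 1) scale, Comb minus ELI, with the standard error (SE) of limma, and this scale understates the change of low genes. The labels do not state whether replicate libraries derive from separate cultures, and the p-values therefore reflect only the scatter among these libraries, which may be technical. In bulk RNA, fewer cells of a kind and less RNA per cell cannot be told apart.

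Eliglustat blocks glucosylceramide synthase, the product of UGCG, which places a glucose on ceramide as the first step of most glycosphingolipids. Venetoclax occupies the groove of BCL2, an anti-apoptotic protein of the outer mitochondrial membrane on which many myeloid leukemia cells rely, and so frees pro-death BH3 proteins held there. Entry of a cell into S phase depends on E2F transcription factors, which switch on the genes that load and fire replication origins and make deoxynucleotides. Genes of mitosis follow later in the cycle under MYBL2 and FOXM1 and often carry a short promoter element named CHR. Oxidants and heme are met by NRF2, a transcription factor that induces heme oxygenase, quinone reductase and the enzymes of glutathione synthesis.

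The 6 libraries fitted their labels in the markers that could be checked. Of 12 myelomonocytic markers 11 reached 1 FPKM (MPO did not), and their summed level was 764 to 769 FPKM in Comb and 730 to 744 FPKM in ELI. Markers of T cells summed to 0.0473 FPKM at most in Comb and 0.049 in ELI, and HBB, HBA1, PF4, PPBP, CD2 and CDH1 were at 0. The B cell, erythroid, megakaryocyte and stromal or epithelial lists had 1 marker each that reached 1 FPKM, and none of these lists summed to more than 3.41 FPKM in Comb or 4.25 FPKM in ELI. Library depth, read back from the FPKM steps, was 19366264 to 20121941 reads in Comb and 17958962 to 21082313 in ELI. On the first principal component of the 6 libraries, with 65.9% of the variance, Comb lay at -10.8 to -11.3 and ELI at 10.7 to 11.5. The second component, with 20.2%, set ELI replicate 1 (-11) against ELI replicate 2 (9.29). How far each of these ELI libraries deviated from their mean depended on gene GC content, with a Spearman rho across genes of -0.70 in ELI replicate 1 and 0.69 in ELI replicate 2. It was -0.29 to 0.26 in the Comb libraries and -0.06 for the difference Comb minus ELI, and genes are not independent replicates in these values.

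With venetoclax added to eliglustat, most tested genes of the lists of DNA replication and mitosis fell, and a smaller number of genes rose, heme oxygenase HMOX1 by the most. limma called 951 of 9959 genes (9.55%) at a Benjamini-Hochberg adjusted p under 0.05. Of these, 302 were higher in Comb (3.03% of genes tested) and 649 were lower (6.52%), and the median over all tested genes was 0.01. Most shifts were small: the median was 0.37 among genes called higher and -0.47 among those called lower, and 4 rose and 35 fell by 1 or more. The 3 Comb and 3 ELI libraries did not overlap for 40.2% of genes. The called count was 624, 608 and 588 without Comb replicate 1, 2 or 3, 600 without ELI replicate 3 and 1529 without DMSO replicate 1, which enters only through the shared estimate of the spread. With each library's trend on GC content and length of the genes removed, 1288 genes were higher and 1177 lower, so the higher share was 52.3% in place of 31.8%, and 938 genes were called both ways.

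**Figure D1:**
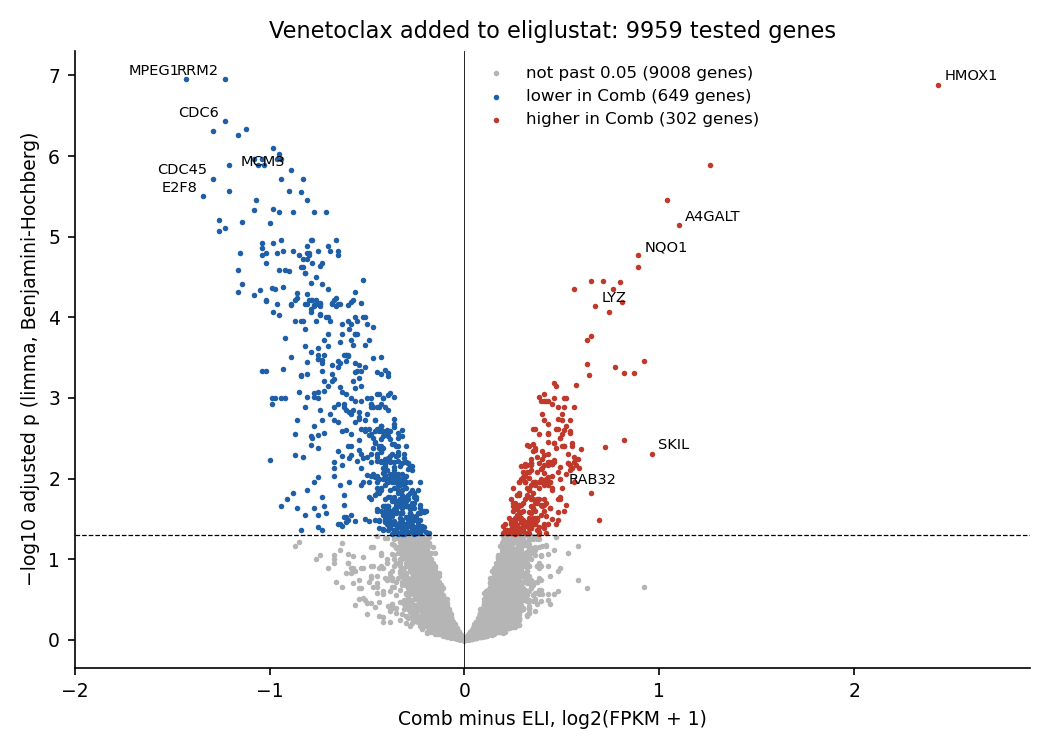
Difference Comb minus ELI on the log2(FPKM + 1) scale (x axis) against the −log10 of the limma adjusted p (y axis) for 9959 tested genes, with the 302 called higher in red, the 649 called lower in blue and a dashed line at an adjusted p of 0.05. HMOX1 stands alone at the right at 2.43, while the lower arm holds many genes between -1 and -1.43.

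Most genes that license and fire replication origins fell. Of 26 tested members of this list 20 fell and 0 rose, with a median of -0.82. The list holds the MCM ring, the helicase that encircles DNA, and its loaders and activators. All 6 genes of the ring (MCM2 to MCM7) fell, by 0.64 to 0.98, and so did all 4 genes of the GINS complex, which joins the ring in the active helicase, by 0.77 to 1.04. CDC6, which loads the ring onto origins, was at 8.43, 8.37 and 8.61 FPKM in Comb, against 21.7, 20.5 and 21.5 FPKM in ELI. Its 2 groups were far apart and each was tight, a fall of 1.23 (SE 0.06, limma adjusted p = 3.7e-07). CDC45, another part of the active helicase, had 8.13, 7.88 and 7.93 FPKM in Comb and 20.7, 21.4 and 20.9 FPKM in ELI, a fall of 1.29 (SE 0.09, limma adjusted p = 1.9e-06). The origin recognition complex split: ORC1 (-1.04) and ORC6 (-1.08) fell, while ORC2 (0.03), ORC3 (-0.16), ORC4 (0.18) and ORC5 (0.16) did not pass. DBF4 (-0.22) and MTBP (-0.48) did not pass either. The same 26 genes had a median of 0.04 for ABT minus DMSO.

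Promoters of the licensing genes are shown because many of them hold an E2F-type motif close to the start of transcription. RefSeq windows (GRCh38.p14, 250 bases before to 50 after the gene start, 300 bases) were searched on both strands for TTTCGCGC, TTTGGCGC and TTTCCCGC, which can overlap each other on opposite strands. Only the 5845 tested genes with a single window were counted. At least 1 of the 3 forms was present in 9 of 15 licensing genes (60%), 8 of 24 genes of the replication fork (33.3%) and 5 of 10 E2F and DREAM regulators (50%), against 5.29% of all single-window genes. Of the 9 licensing genes with a form, 8 were called lower (88.9%), next to 76.9% of the whole licensing list. The windows below run from 100 bases before to 25 bases after the start and belong to licensing genes with large called falls. Each holds a form in that stretch, marked in capitals. Not every licensing gene was open to this choice, so a gene with a larger fall may be missing. MCM2 holds TTTCGCGC on both strands, overlapping, in a palindrome.
MCM2, chr3:127598311-127598435, plus strand: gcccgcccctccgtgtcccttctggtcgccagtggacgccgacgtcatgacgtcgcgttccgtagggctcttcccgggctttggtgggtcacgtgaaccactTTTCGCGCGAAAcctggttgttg
CDC6, chr17:40287779-40287903, plus strand: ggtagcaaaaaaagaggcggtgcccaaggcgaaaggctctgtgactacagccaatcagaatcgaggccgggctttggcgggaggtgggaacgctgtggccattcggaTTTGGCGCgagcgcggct
GINS1, chr20:25407573-25407697, plus strand: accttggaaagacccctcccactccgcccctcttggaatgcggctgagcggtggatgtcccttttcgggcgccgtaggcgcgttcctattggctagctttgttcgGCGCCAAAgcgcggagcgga
GINS2, chr16:85688930-85689054, minus strand: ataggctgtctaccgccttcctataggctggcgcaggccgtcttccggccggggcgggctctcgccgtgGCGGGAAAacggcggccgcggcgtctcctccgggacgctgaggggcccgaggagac
CDT1, chr16:88803689-88803813, plus strand: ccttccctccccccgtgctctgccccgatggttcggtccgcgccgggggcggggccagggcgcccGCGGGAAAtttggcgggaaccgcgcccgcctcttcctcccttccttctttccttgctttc

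A match is a description of these letters and not a bound site. Among all 309 single-window genes with a form, 57 (18.4%) were called lower. That share was higher than among all single-window genes, where 372 of 5845 were called lower, and than the 6.52% of all tested genes. Still, most holders of the motif did not pass the test in this comparison.

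The replication fork changed with the origins. Of 35 tested genes of the fork and of chromatin assembly 31 fell and 0 rose (median -0.79), and all 35 had a negative difference. PCNA, the sliding clamp of the polymerases, was at 126, 121 and 117 FPKM in Comb and 243, 223 and 236 FPKM in ELI, so every Comb library lay far below every ELI library (-0.94, SE 0.06, limma adjusted p = 1.1e-06). ASF1B, a chaperone that hands histones to new DNA, fell by 1.26 to 28.8, 28.8 and 30.5 FPKM in Comb, against 66.5, 78.4 and 70.9 FPKM in ELI. UHRF1, which carries DNA methylation to the new strand, fell by 0.98. FEN1, the flap nuclease of Okazaki fragments, fell by 1.03, and since its locus overlaps that of FADS2 on the same strand in GENCODE 29, reads of the pair may be split between them. MCM10 (-1.14), the ubiquitin ligase adaptor DTL (-1.14), which acts on PCNA-bound proteins, the chromatin remodeller HELLS (-1.16) and WDR76 (-1.16) were also among the 15 largest falls of genes averaging at least 5 FPKM.

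Most enzymes of deoxynucleotide supply in the nucleotide list fell, while those of early purine and pyrimidine synthesis mostly did not pass. RRM2, the limiting subunit of ribonucleotide reductase (chromosome 2, 10120698 to 10131419, GRCh38), was at 20.4, 19.8 and 20.9 FPKM in Comb and 48.6, 49.4 and 48.6 FPKM in ELI. Its fall of 1.23 (SE 0.05) had the smallest adjusted p of all genes tested, shared with MPEG1 (limma adjusted p = 1.1e-07). Thymidine kinase TK1 was at 17.8, 20.4 and 19.7 FPKM in Comb, against 43.6, 52.1 and 47.4 FPKM in ELI, a fall of 1.26. RRM1 (-0.93), TYMS (-0.72), DTYMK (-0.67), DUT (-0.65) and DCK (-0.50), which also serve this supply, fell as well. RRM2B, another subunit of ribonucleotide reductase (0.28), and the dCTP pyrophosphatase DCTPP1 (-0.14) did not pass. Of the whole nucleotide list of 25, 12 fell and 1 rose (IMPDH2, 0.30, of guanine nucleotide synthesis), with a median of -0.26. DHODH (0.06), CAD (-0.08), GART (-0.11), ATIC (-0.01) and ADSL (-0.01) did not pass.

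Among the regulators, some E2F genes fell and others did not pass. The activators E2F1 and E2F2 and the late repressors E2F7 and E2F8 fell by 1.02, 1.23, 1.29 and 1.34, while the activator E2F3 (-0.12), E2F4 (0.01) and E2F6 (-0.05) did not pass. E2F8 had 4.06, 3.71 and 4.44 FPKM in Comb and 11.6, 12 and 12 FPKM in ELI. MYBL2, the activating subunit that turns the DREAM complex toward mitotic genes, fell to 39.9, 42.1 and 40.1 FPKM in Comb, against 85.2, 99.5 and 91.4 FPKM in ELI (-1.15, SE 0.10, limma adjusted p = 1.6e-05). Of 16 tested E2F and DREAM regulators 8 fell and 0 rose (median -0.36). Of 18 cyclins, kinases and inhibitors of G1 and S, 10 fell and 1 rose. CCNE1 (-0.84), its kinase CDK2 (-0.81), the activating phosphatase CDC25A (-0.87) and the kinase subunit CKS1B (-0.77) fell. The inhibitor CDKN1C rose by 0.37, whereas the inhibitor CDKN1A, a p53 target, fell by 0.94 (SE 0.14, limma adjusted p = 0.0010), with 1.6, 1.91 and 1.77 FPKM in Comb and 3.88, 4.69 and 4.29 FPKM in ELI. CCND2 (0.22), CCND3 (-0.26) and CDKN1B (0.10) did not pass.

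Genes of mitosis fell too. Of 48 tested members 37 fell and 0 rose, all 48 differences were negative, and the median was -0.68. SPC24, a kinetochore subunit, was at 4.75, 5.04 and 4.66 FPKM in Comb and 10.6, 11.7 and 11.7 FPKM in ELI (-1.08). NCAPH of condensin (-0.96), the kinase AURKB (-0.96), the centromere chaperone HJURP (-0.90), the spindle factor TPX2 (-0.70) and the transcription factor FOXM1 (-0.89) fell. CCNB1 (-0.41) and PLK1 (-0.42) fell least among the called members. The 11 members short of the threshold include TOP2A, at 44.9, 56.7 and 50.9 FPKM in Comb against 99.5, 57.4 and 74.6 FPKM in ELI, where ELI replicate 1 is the highest and the ELI spread is wide. Without ELI replicate 1, 32 members fell, and with the GC and length trend removed 43 did. The part of the GC difference among ELI libraries in these calls was not tested beyond these fits.

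The short element CHR, searched as TTTGAA on both strands of the same windows, was found in 24 of 33 single-window mitosis genes (72.7%) and in 1 of 15 licensing genes (6.67%), against 9.48% of all single-window genes. CCAAT was found in 23 of the 33 (69.7%) and in 38.6% of all. Of the 24 holders of the element in the list 18 were called lower (75%), next to 77.1% of the whole list. Windows of 100 bases before to 25 after the start are shown for 4 single-window mitosis genes with large called falls that hold it there. The element is in capitals. Not every mitosis gene was open to this choice, so a gene with a larger fall may be missing.
NCAPG, chr4:17810879-17811003, plus strand: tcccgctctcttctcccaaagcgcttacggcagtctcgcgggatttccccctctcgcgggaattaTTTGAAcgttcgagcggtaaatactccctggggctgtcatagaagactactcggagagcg
ESPL1, chr12:53268199-53268323, plus strand: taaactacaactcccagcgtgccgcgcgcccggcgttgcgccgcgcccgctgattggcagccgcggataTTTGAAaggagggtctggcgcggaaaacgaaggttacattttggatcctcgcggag
SPC25, chr2:168890406-168890530, minus strand: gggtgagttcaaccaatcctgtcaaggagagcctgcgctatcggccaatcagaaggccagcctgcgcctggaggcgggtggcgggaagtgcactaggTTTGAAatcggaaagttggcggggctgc
KIF18B, chr17:44947749-44947873, minus strand: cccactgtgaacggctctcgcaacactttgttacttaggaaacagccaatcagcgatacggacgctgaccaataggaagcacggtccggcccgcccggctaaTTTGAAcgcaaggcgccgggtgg

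NCAPG is a condensin subunit (-0.91), ESPL1 the separase that opens sister chromatids (-0.90), SPC25 the partner of SPC24 (-0.86) and KIF18B a microtubule motor (-0.81). In all 4 the element lies within 35 bases of the start, and CCAAT was searched separately and is not capitalised.

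**Figure D2:**
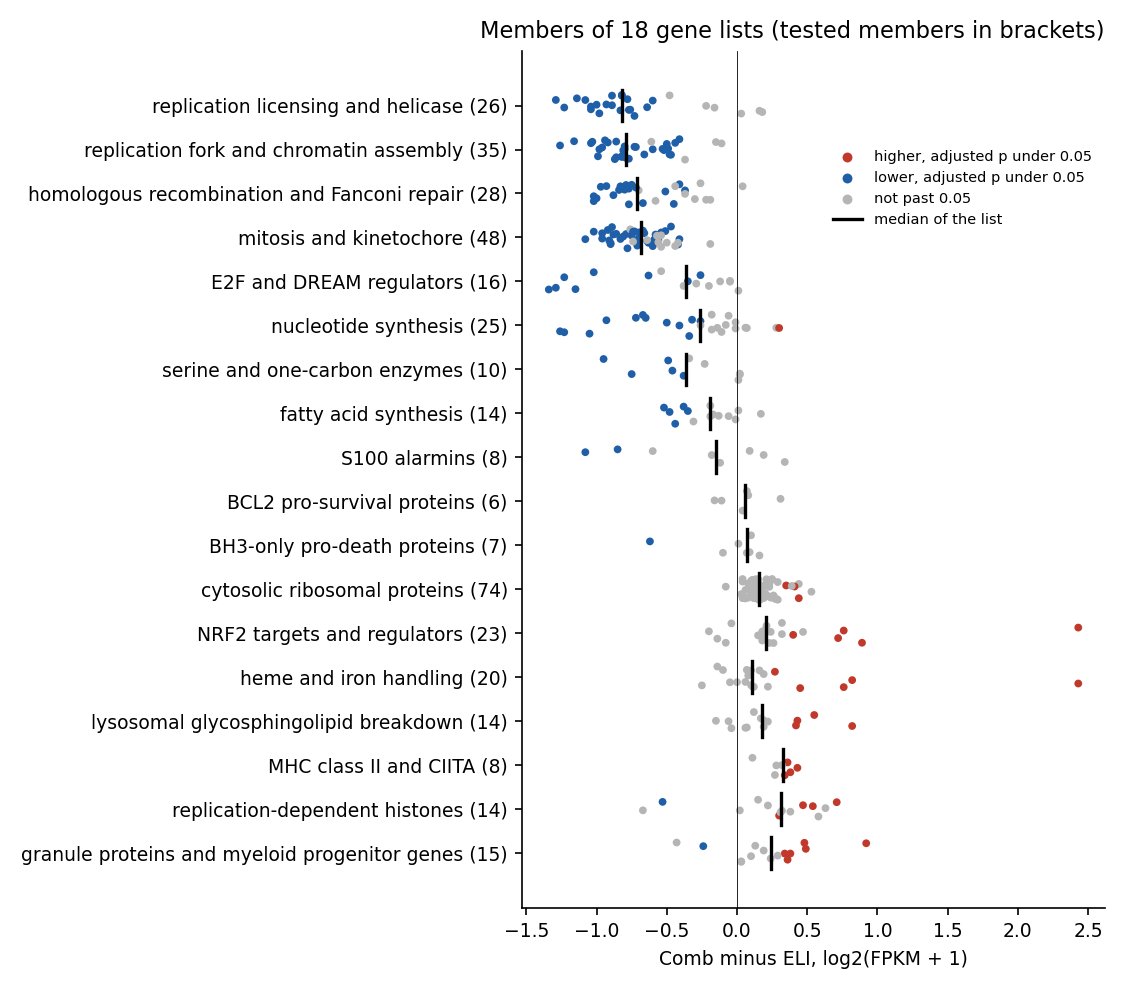
Comb minus ELI on the log2(FPKM + 1) scale (x axis) for the tested members of 18 gene lists (rows); red and blue points passed an adjusted p of 0.05, grey points did not, and black bars are list medians. The cell cycle lists lie almost wholly left of 0, and NRF2, heme, lysosomal and MHC class II lists have their called members on the right.

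Repair genes that work with replication fell with it. Of 28 tested genes of homologous recombination and the Fanconi pathway 19 fell and 0 rose (median -0.71). RAD54L, a translocase of strand exchange, was at 3.01, 3.72 and 3.36 FPKM in Comb and 7.29, 8.8 and 7.55 FPKM in ELI (-1.02). FANCA (-0.88), FANCD2 (-0.80) and RMI2 (-0.83) fell, as did the nuclease EXO1 (-1.16). The cytidine deaminase APOBEC3B fell by 1.21 to 6.86, 6.81 and 6.57 FPKM in Comb, against 15.2, 18.2 and 17.4 FPKM in ELI, with the caution that its paralogs share sequence. Without ELI replicate 1 the repair count was 14, and with the trend removed it was 26.

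Histone genes were called mostly in the other direction. Of 14 tested replication-dependent histone genes 4 rose and 1 fell (median 0.32). H2AC6 was at 22, 20.2 and 20.9 FPKM in Comb and 13.3, 12.6 and 11.5 FPKM in ELI, a rise of 0.71 (SE 0.07, limma adjusted p = 3.5e-05), and H2BC5 (0.54), H2BC12 (0.47) and H2BC21 (0.30) rose. The linker histone H1-2 fell by 0.53, a call lost without Comb replicate 2 or 3 or ELI replicate 3 (highest adjusted p = 0.066). Most histone mRNA lacks a poly(A) tail, the sources used here do not say how RNA was selected, and family members share sequence, so which transcripts these values represent was not tested.

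Some enzymes of serine and fatty acid synthesis fell as well. Of 10 tested genes of serine and one-carbon metabolism 5 fell and 0 rose (median -0.36). PHGDH, the first enzyme of serine synthesis, was at 4.07, 4.13 and 3.84 FPKM in Comb and 7.87, 9.54 and 8.66 FPKM in ELI (-0.95, SE 0.11), and PSAT1 (-0.75), MTHFD1 (-0.49) and SHMT1 (-0.46) fell. Of 14 fatty acid synthesis genes 5 fell and 0 rose (median -0.19), with the desaturases FADS1 (-0.52) and SCD (-0.38) and the regulator SREBF1 (-0.48). FADS1 averaged 40.3 FPKM in both Comb and DMSO, set against 58.4 FPKM in ELI. FADS2 (-0.44), which overlaps FEN1, lost its call without 4 of the 6 libraries in turn (highest adjusted p = 0.066). Sterol synthesis was nearly flat, with 1 of 22 genes lower and 0 higher (median -0.07). The cholesterol exporter ABCA1 fell by 0.74 to 1.24, 1.31 and 1.15 FPKM in Comb, against 2.88, 2.81 and 2.52 FPKM in ELI.

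Heme oxygenase HMOX1, which opens the heme ring and releases iron, had the largest rise of all genes tested. On chromosome 22 (35380361 to 35394214, plus strand, GRCh38), it was at 16.5, 15.2 and 15.7 FPKM in Comb, against 1.96, 2.52 and 1.95 FPKM in ELI. The mean was 7.39-fold higher in Comb, a difference of 2.43 (SE 0.11, limma adjusted p = 1.3e-07), and ABT and DMSO averaged 1.63 and 1.98 FPKM. Its companions rose less. The quinone reductase NQO1 had 27.4, 25.3 and 26.6 FPKM in Comb and 13.6, 14.1 and 13.7 FPKM in ELI (0.89, SE 0.08). SLC48A1, which carries heme out of lysosomes, had 3.71, 3.95 and 4.15 FPKM in Comb and 1.86, 1.91 and 1.99 FPKM in ELI (0.76). GCLM, the modifier subunit of glutathione synthesis, rose by 0.72 and the pentose phosphate enzyme PGD by 0.40. In these genes every Comb library lay above every ELI library, as was so for 1959 of all 9959 tested genes.

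Of 23 tested NRF2 targets and regulators 5 rose and 0 fell, and 19 differences were positive (median 0.21). GCLC (0.18), TXNRD1 (0.19), SLC7A11 (0.47, limma adjusted p = 0.053), the factor gene NFE2L2 (0.15) and its inhibitor gene KEAP1 (-0.04) did not pass. With the GC and length trend removed 17 rose and 1 fell. The NRF2 motif core TGACNNNGC, searched on both strands, lay in 3 of 11 single-window genes of the list (27.3%), against 15.8% of all. Among called members with a single window, only GCLM held the core between 100 bases before and 25 after the start, and its window is shown. Members without a single window, HMOX1 among them, were not searched.
GCLM, chr1:93909406-93909530, minus strand: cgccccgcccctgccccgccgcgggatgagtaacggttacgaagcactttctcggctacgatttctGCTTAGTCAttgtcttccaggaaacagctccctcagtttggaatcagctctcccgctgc

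The ferritin genes of iron storage were also higher in Comb than in ELI. The ferritin heavy chain FTH1 was at 201, 210 and 235 FPKM in Comb and 118, 126 and 119 FPKM in ELI (0.82, SE 0.15, limma adjusted p = 0.0033). FTH1 averaged 55.6 FPKM in ABT and 58.2 FPKM in DMSO, so unlike HMOX1 it was already higher in ELI than in DMSO. The light chain FTL was at 6093, 6038 and 6053 FPKM in Comb and 4009, 4704 and 4656 FPKM in ELI (0.45, SE 0.12, limma adjusted p = 0.032). Both have processed pseudogenes that can take part of their reads. Of 20 tested heme and iron genes 5 rose and 0 fell (median 0.10), the last of them ALAD (0.27), an early enzyme of heme synthesis whose call was lost without 5 of the 6 libraries in turn (highest adjusted p = 0.085). Without ELI replicate 1, 3 of the 5 were called.

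**Figure D3:**
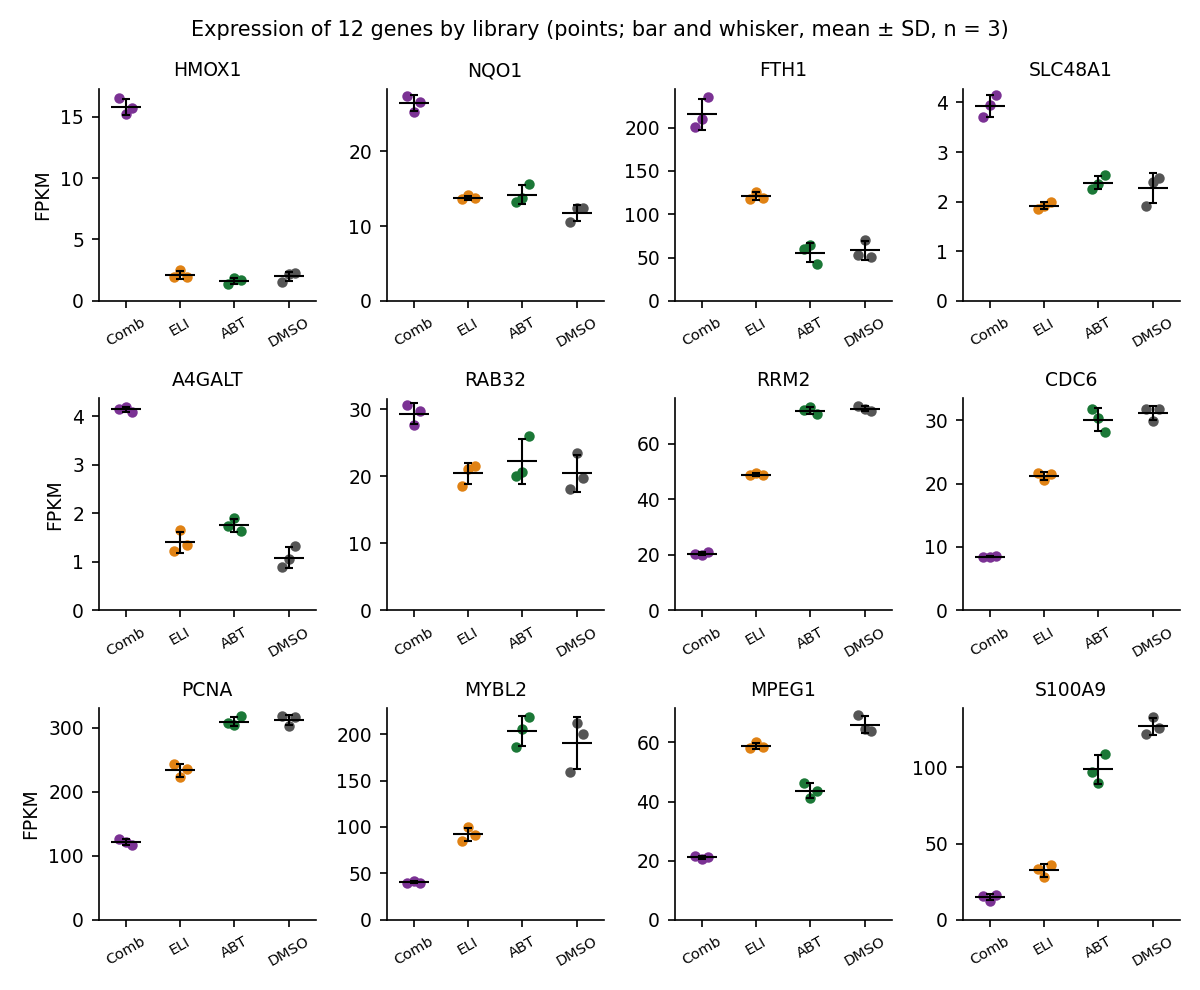
FPKM (y axes, linear from 0) of 12 genes in the 3 libraries of Comb, ELI, ABT and DMSO; points are libraries, horizontal bars means and whiskers SD (n = 3). HMOX1, NQO1, FTH1, SLC48A1, A4GALT and RAB32 are highest in Comb. RRM2, CDC6, PCNA and MYBL2 are lowest in Comb, with ELI between Comb and the libraries of ABT and DMSO.

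Eliglustat blocks the entrance of the glycosphingolipid pathway, where 3 of 9 tested synthesis genes were called. UGCG itself (chromosome 9, 111896766 to 111935369) was at 244, 260 and 251 FPKM in Comb and 312, 264 and 287 FPKM in ELI, and the difference of -0.19 (SE 0.15) did not pass (limma adjusted p = 0.54). It passed in a replicate block fit with the trend removed (-0.17, limma adjusted p = 0.038) and with Comb and ELI fitted alone (-0.19, limma adjusted p = 0.050). A4GALT, which makes globotriaosylceramide, was at 4.15, 4.2 and 4.09 FPKM in Comb and 1.23, 1.65 and 1.34 FPKM in ELI. That is a 2.95-fold rise of the mean (1.10, SE 0.09, limma adjusted p = 7.1e-06), with groups far apart. B4GALT5, a lactosylceramide synthase, was 0.26 higher (limma adjusted p = 0.049), and ST3GAL3 0.27 lower (0.038), calls lost under 13 and 7 of the alternatives, with adjusted p-values up to 0.18 and 0.15. In all, 2 of the 9 rose and 1 fell.

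Breakdown of sphingolipids in lysosomes had 4 of 14 tested genes higher and 0 lower (median 0.18). ASAH1, acid ceramidase, was at 26, 27.3 and 26.9 FPKM in Comb and 16.2, 13.4 and 14.6 FPKM in ELI (0.82, SE 0.11, limma adjusted p = 0.00049). PSAP, the precursor of the saposins that present lipids to these enzymes, rose by 0.55 to 134, 128 and 132 FPKM in Comb, against 83, 95.6 and 90.5 FPKM in ELI. GM2A, the activator of ganglioside breakdown, rose by 0.43. The protective cathepsin CTSA rose by 0.42, a call lost without ELI replicate 1 (limma adjusted p = 0.051). GLA (0.06) and SMPD1 (-0.15) did not pass. In a list of 26 lysosomal enzymes and membrane proteins, which also holds CTSA, 4 rose and 1 fell (median 0.09), with cathepsin D (CTSD) at 0.53 and GUSB at -0.32. Of 23 ceramide and sphingomyelin genes 0 rose and 1 fell.

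Among the 4 rises of 1 or more, ACSM3 and DNASE2 belong to no list used here and are named after their values were seen. ACSM3, a mitochondrial acyl-CoA synthetase, was at 6.08, 6.07 and 6.17 FPKM in Comb and 2.02, 1.86 and 2.03 FPKM in ELI (1.26, SE 0.08, limma adjusted p = 1.3e-06). DNASE2, the acid nuclease of lysosomes, was at 2.68, 2.63 and 2.35 FPKM in Comb and 0.726, 0.694 and 0.767 FPKM in ELI (1.04, SE 0.07). Both were near the ELI level or below it in the other groups, with ABT means of 1.19 and 0.618 FPKM and DMSO means of 1.25 and 0.695 FPKM.

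The target of venetoclax and its relatives did not pass the test. BCL2 (chromosome 18, 63123346 to 63320128) was at 26.7, 28 and 26.4 FPKM in Comb and 26.6, 26.2 and 25.9 FPKM in ELI (0.04, SE 0.10, limma adjusted p = 0.87). MCL1 (-0.16, SE 0.07, limma adjusted p = 0.23) and BCL2L1 (0.07, SE 0.11, limma adjusted p = 0.80), whose proteins can stand in for BCL2, were short of the threshold as well. MCL1 passed when Comb and ELI were fitted alone (limma adjusted p = 0.024). Of 6 pro-survival genes 0 were called, and of BAX and BAK1 0 were called. Among 7 BH3-only pro-death genes 1 fell, PMAIP1 (NOXA), at 9.12, 9.91 and 9.29 FPKM in Comb against 15.4, 13.9 and 16 FPKM in ELI (-0.62, SE 0.16, limma adjusted p = 0.030), and 0 rose. Without ELI replicate 1, 0 of these 7 genes were called, so the PMAIP1 call was lost. BCL2L11 (0.16) and BBC3 (0.09) did not pass. Of 16 caspase, apoptosome and IAP genes, the inhibitor of death-receptor signalling CFLAR rose (0.34) and CASP2 fell (-0.35).

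RAB32, a small GTPase that anchors protein kinase A at mitochondria and is named in the series title, was higher in Comb. It lies on chromosome 6 (146543693 to 146554965, plus strand) and was at 30.7, 27.6 and 29.8 FPKM in Comb and 18.6, 21.1 and 21.6 FPKM in ELI. The groups did not overlap (0.50, SE 0.11, limma adjusted p = 0.013), but the call was lost without Comb replicate 1 or 3 or ELI replicate 1 (highest adjusted p = 0.062). Its close relative RAB38 was 0.37 lower, with 1.66, 1.25 and 1.74 FPKM in Comb and 2.61, 2.27 and 2.02 FPKM in ELI (limma adjusted p = 0.035). Of 10 genes of the RAB32 family and its partners these were the only called ones, and 0 of the 10 were called without ELI replicate 1. Among 34 genes of the contact sites that join mitochondria to the endoplasmic reticulum, RAB32 was higher and ITPR3 (-0.32) and MCUR1 (-0.26) lower, a called share of 8.82% next to the 9.55% of all genes. ITPR3, a calcium channel of the reticulum, lost its call without Comb replicate 3 or ELI replicate 1 or 2. MCUR1, a regulator of mitochondrial calcium uptake, lost it without 5 of the 6 libraries in turn.

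Mitochondrial and protein-folding genes changed little in single-gene calls. Nuclear subunits of complex I had 1 of 34 higher and 0 lower, complexes II to V had 1 of 37 and 0, mitochondrial ribosomal proteins 2 of 68 and 0, and import factors 1 of 29 and 0. The 13 mitochondrially encoded transcripts had 0 calls. Of 25 genes of endoplasmic reticulum chaperones and the unfolded protein response only XBP1 was called, at 99.7, 96 and 98.2 FPKM in Comb against 129, 134 and 137 FPKM in ELI (-0.45, SE 0.07, limma adjusted p = 0.00090), and the DMSO mean was 99.8 FPKM. Cytosolic ribosomal protein genes leaned one way: 73 of 74 differences were above 0 (median 0.16), but only RPS12 (0.41), RPS15A (0.44) and RPS23 (0.35) were called, and with the trend removed 35 were. These genes have many pseudogenes, and RPS15A lost its call without 5 of the 6 libraries in turn (highest adjusted p = 0.11).

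Myeloid genes moved in both directions. MPEG1, a pore-forming protein of macrophages, had the largest fall of all tested genes: 21.7, 20.7 and 21.2 FPKM in Comb, against 58.2, 60.1 and 58.3 FPKM in ELI (-1.43, SE 0.06, limma adjusted p = 1.1e-07). The alarmin S100A9 fell to 15.4, 12.7 and 16.6 FPKM in Comb, against 33.5, 28 and 36.3 FPKM in ELI (-1.08), and its partner S100A8 fell by 0.85. Lysozyme (LYZ) rose to 94.1, 87.8 and 89.2 FPKM in Comb, against 57.5, 53.7 and 58.1 FPKM in ELI (0.67, SE 0.07), with means of 103 FPKM in ABT and 111 in DMSO. The chitinase-like gene CHI3L1 rose to 207, 199 and 210 FPKM in Comb, against 114, 122 and 117 FPKM in ELI (0.80), with 48.5 FPKM in ABT and 42.3 in DMSO. So LYZ in Comb lay between ELI and the libraries without eliglustat, and CHI3L1 lay further from them than ELI did. Of 19 monocyte and macrophage genes 5 rose and 2 fell (median 0.07), and without ELI replicate 1 these counts were 2 and 1.

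Genes of granules and of myeloid progenitors had 6 of 15 higher and 1 lower (median 0.24). MS4A3, a marker of granulocyte-monocyte progenitors, was at 11.4, 10.7 and 10.1 FPKM in Comb and 5.59, 4.33 and 5.81 FPKM in ELI (0.92, SE 0.12), and 15.9 FPKM in ABT and 14 in DMSO. The granule protease PRTN3 (0.49) and the ribonuclease RNASE2 (0.36) rose, and PLAC8 fell by 0.24. PRTN3 lost its call without Comb replicate 3 or ELI replicate 1 (highest adjusted p = 0.060) and PLAC8 under 6 alternatives (0.074). Without ELI replicate 1, 2 of the 15 were higher and 0 lower.

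Antigen presentation genes of MHC class II were called in 1 direction. All 8 tested members had a positive difference and 4 passed (median 0.33): HLA-DRA, HLA-DRB1, HLA-DPA1 and the master regulator CIITA. HLA-DRA was at 128, 127 and 138 FPKM in Comb and 95.3, 94.3 and 102 FPKM in ELI (0.43, SE 0.07, limma adjusted p = 0.0011). CIITA was at 4.41, 4.58 and 4.49 FPKM in Comb and 3.05, 3.51 and 3.15 FPKM in ELI (0.38). HLA-DRB1 (0.36) has close paralogs and lost its call without Comb replicate 3 or ELI replicate 3 (highest adjusted p = 0.068).

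SKIL, a co-repressor of SMAD proteins, was at 13.6, 15.1 and 14.6 FPKM in Comb and 8.06, 6.24 and 6.55 FPKM in ELI (0.96, SE 0.18, limma adjusted p = 0.0049), and the inhibitory SMAD7 rose by 0.49. The repressor BHLHE40 (0.74), the collagen chain COL6A1 (0.64), the oxygenase CYP1B1 (0.87), PALD1 (0.89) and BEX1 (0.65) rose too. BHLHE40 was at 46.9, 44 and 46 FPKM in Comb and 27, 27.3 and 26.5 FPKM in ELI, while ABT and DMSO averaged 3.72 and 3.19 FPKM. GABARAPL1, a conjugation factor of autophagosomes, rose by 0.57. It was the only called gene of 28 in the autophagy list (3.57%, next to 9.55% of all genes). With the GC and length trend removed, 10 of the list were called higher and 1 lower.

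**Figure D4:**
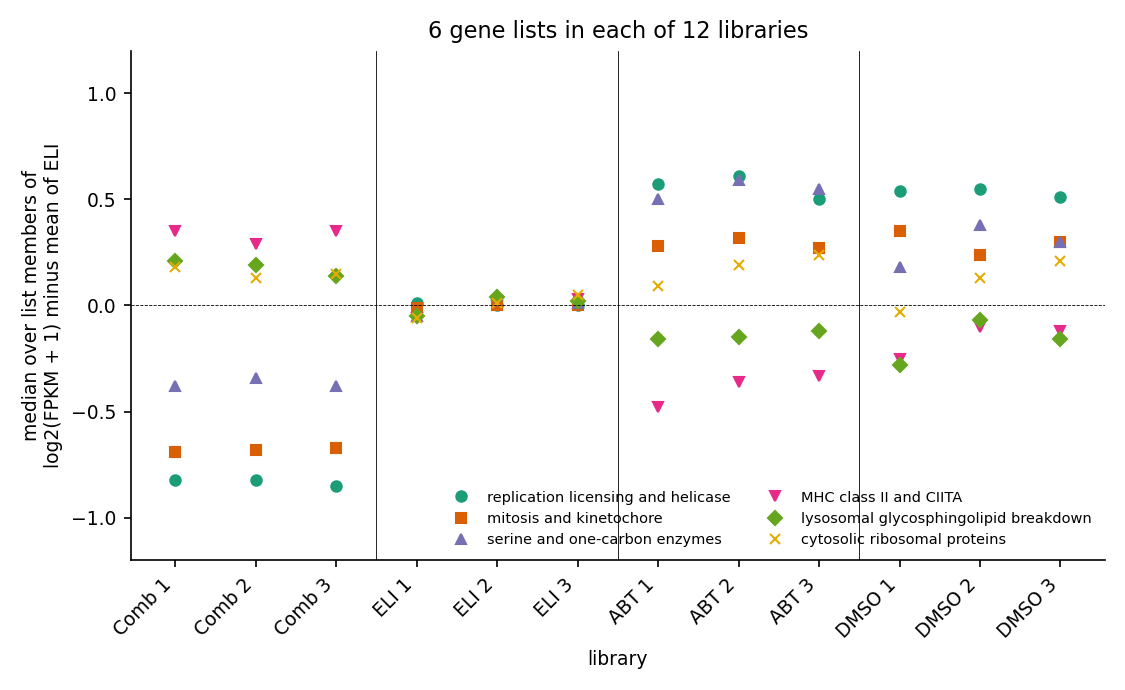
Median over the tested members of 6 gene lists of log2(FPKM + 1) minus the ELI mean (y axis) in each of 12 libraries (x axis, Comb, ELI, ABT, DMSO). The licensing list is at -0.82 to -0.85 in Comb, near 0 in ELI, 0.50 to 0.61 in ABT and 0.51 to 0.55 in DMSO, and the 3 libraries of a group lie close together for it.

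Whether venetoclax did the same without eliglustat was tested as an interaction, the difference Comb minus ELI less the difference ABT minus DMSO, 2 differences that share no library. limma called 532 genes (5.34%), 167 with an interaction above 0 and 365 below 0. Since the interaction contains Comb minus ELI, its calls overlap with those above by construction, and the overlap is not read as a result. For genes called higher in Comb minus ELI the median of ABT minus DMSO was -0.00222 and for those called lower it was -0.0135, and 148 of 302 and 346 of 649 had the same sign in ABT minus DMSO. The licensing list had 18 and the mitosis list 31 interactions below 0, and none of either above 0. ABT minus DMSO followed GC content, with a Spearman rho of 0.66 across genes, and with the trend removed 1656 genes were called, 793 above 0 and 863 below. Libraries of equal number deviated together in ABT and DMSO, with correlations of 0.88, 0.389 and 0.495, but not in Comb and ELI. Equal numbers were not always the closest pair, since ABT replicate 3 had 0.735 with DMSO replicate 2. A fit with a replicate block called 983 interactions, the 532 among them. The count was 1123 without DMSO replicate 2, 326 without ABT replicate 2, 331 and 332 without Comb replicate 2 or 3, and 351 and 322 without ELI replicate 2 or 3.

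The 6 largest interactions above 0 among genes of at least 5 FPKM were in HMOX1 (2.60, SE 0.15), CXCL8, H2AC6, SKIL, ASAH1 and FYB1. H2AC6 differed by 0.71 for Comb minus ELI and by -0.56 for ABT minus DMSO, with means of 3.67 FPKM in ABT and 5.88 in DMSO. HLA-DRA was likewise opposite in sign, 0.43 with eliglustat and -0.51 without, an interaction of 0.94 (SE 0.09, limma adjusted p = 0.00012). The chemokine CXCL8 was at 26.8, 29.5 and 28.4 FPKM in Comb and 23.5, 17.4 and 19.3 FPKM in ELI, where the difference did not pass (0.48, limma adjusted p = 0.25), and at 3 FPKM in ABT and 6.22 in DMSO on average. The 6 largest below 0 were in CDC45 (-1.46, SE 0.12), E2F2, E2F7, TCF19, TK1 and MYBL2, and in each ABT minus DMSO lay between -0.01 and 0.17. MPEG1 fell in both settings, by 1.43 with eliglustat and by 0.59 without, and the interaction of -0.85 (SE 0.09) passed (limma adjusted p = 0.00014). S100A8 fell by 0.85 with eliglustat and differed by -0.77 without, and its interaction (-0.08) did not pass.

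**Figure D5:**
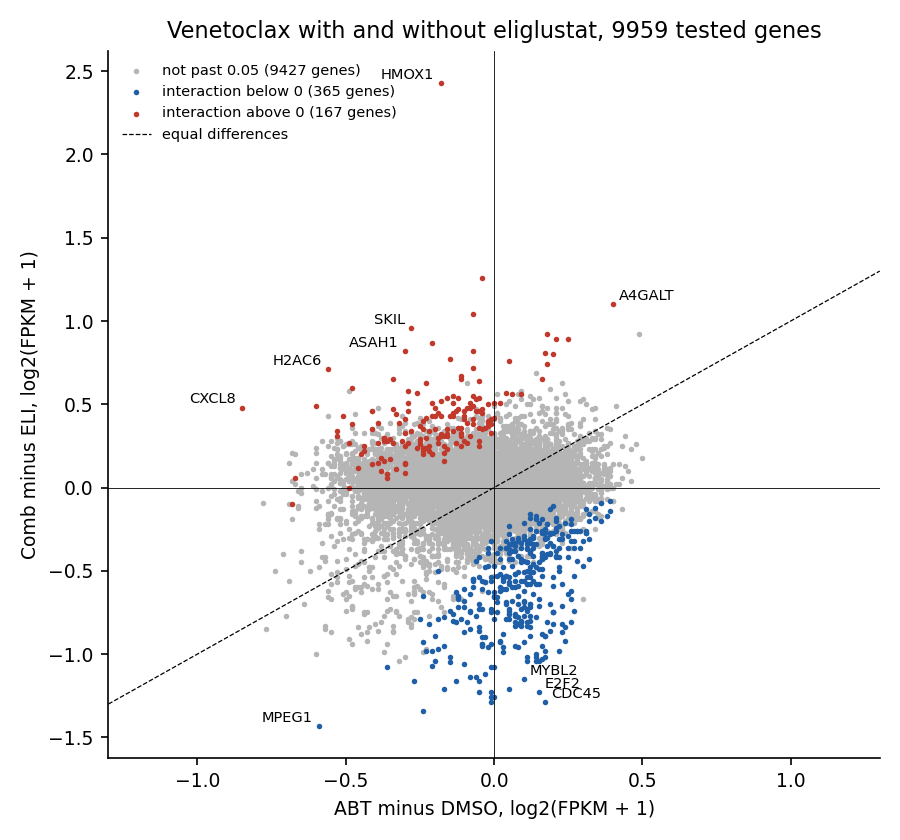
Comb minus ELI (y axis) against ABT minus DMSO (x axis), both on the log2(FPKM + 1) scale, for 9959 tested genes; red and blue mark the 167 interactions called above and the 365 called below 0, and the dashed line marks equal differences. Called genes spread along the y axis from -1.43 to 2.43, and ABT minus DMSO stays within -0.85 and 0.50.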

How the data were processed

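Total RNA of MV-4-11 cells was sequenced in 12 libraries, and groups and replicate numbers come from the sample titles. The authors deposited 1 table of FPKM values for 20036 genes, per the file headers; the sources used here give no aligner, counter, build or library selection. FPKM steps were whole reads for 16361 of 16361 genes above 0 (100.0%, tolerance 1e-05, and 0.001 for 1 gene), and these reads gave depths of 17259905 to 21082313 and the voom alternative.

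The design named a count test for counts, and since the table holds FPKM, log2(FPKM + 1) was fitted with limma 3.58.1 in R 4.3.3, 1 model of 4 group means for 12 libraries, with trended and robust variances. Genes of at least 1 FPKM in 3 libraries (9959) were tested, with Benjamini-Hochberg adjustment over all of them at 0.05. Libraries of a group differed by more than counting noise (2.52 to 16.6 for chi-square over degrees of freedom), and none was a copy.

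The members and the 56 lists (1319 genes) were chosen with earlier results of these data known. Genes named are UGCG, BCL2, BCL2L1, MCL1 and RAB32; the 15 largest called changes in each direction among genes averaging at least 5 FPKM whose libraries do not overlap; up to 4 called members with the smallest adjusted p of each list with 3 or more; and the 6 largest interactions in each direction. Other list members are given as counts with examples. Lists had no test of their own. Positions are from GENCODE 29 (GRCh38), whose identifiers matched, and promoters from RefSeq (GRCh38.p14), where 5845 tested genes had 1 window, 2333 more than 1 and 1781 none. The GC and length trend was a loess curve per library, with GC content for 9947 genes (99.9%).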

Additional observations from a re-analysis of the deposited data

Results flagged for a closer look

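The interaction test of limma called 532 genes (5.34%), in which the addition of venetoclax differed in effect with and without eliglustat. Listed here are 12 of them, chosen from the same test as the largest in each direction at the FPKM level set above. Above 0 were HMOX1 (2.60), CXCL8 (1.34), H2AC6 (1.27), SKIL (1.24), ASAH1 (1.12) and FYB1 (1.10), the last an adaptor of immune signalling whose Comb minus ELI difference of 0.49 did not pass (limma adjusted p = 0.13). Below 0 were CDC45 (-1.46), E2F2 (-1.39), E2F7 (-1.28), TCF19 (-1.26), TK1 (-1.26) and MYBL2 (-1.25). FYB1 and CXCL8 were called for Comb minus ELI once the GC and length trend was removed (limma adjusted p = 0.00040 and 0.0010). The part of the GC difference between libraries in these interactions was not tested beyond that fit.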

How the results depend on the processing

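The count of 951 genes called for Comb minus ELI stayed between 731 and 960 with pseudocounts of 0.1 and 0.5, without a filter, with a filter of 5 FPKM, with median-of-ratios scaling and with limma's voom on recovered reads. It was 2465 with the GC and length trend removed, 2252 with Comb and ELI fitted alone and 1546 without the 4 libraries numbered 1; the cause was not tested. Leaving out each of the 12 libraries in turn gave 588 to 1529. Replicate numbers of Comb and ELI did not pair the libraries, with correlations of deviations of -0.22, -0.31 and 0.06 for equal numbers. For equal numbers of ABT they were 0.88, 0.389 and 0.495 with DMSO and 0.74, 0.38 and 0.262 with ELI. Some unequal numbers lay higher, as ABT replicate 3 had 0.735 with DMSO replicate 2 and 0.571 with ELI replicate 2. With the number as a replicate block 1357 genes were called, 2818 with the trend also removed and 1607 with Comb and ELI alone. The interaction count of 532 stayed between 463 and 604 under the scaling, filter, pseudocount and voom settings. It was 983 with the replicate block, 1656 with the trend removed, 2098 with both and 1801 without the 4 libraries numbered 1, and leaving out single libraries gave 322 to 1123. The fits that left out ABT or DMSO libraries for Comb minus ELI, and those without the libraries numbered 1, were chosen after seeing the data. Of 113 named genes called for Comb minus ELI, 84 kept the call under every alternative run, 22 lost it only with libraries left out, and B4GALT5, CEBPB, SLC2A1, DUSP4, ETV4, PLAC8 and SKI lost it under another setting as well. Among named genes 1 changed sign, BCL2L1, which was never called: single libraries left out gave -0.01 (without ELI replicate 1) to 0.15, and it was -0.04 without the 4 libraries numbered 1. For a gene model of 5 kb 1 read is worth 0.0095 to 0.0116 FPKM, and counting noise is a part of the spread between libraries, more so for short and low genes.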

Other observations

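Calls in some further lists for Comb minus ELI are counts beside the 9.55% of all genes called, with no test of the lists. Of 16 tested interferon-stimulated genes 4 fell and 2 rose. OAS2, a sensor of double-stranded RNA, was at 0.409, 0.557 and 0.507 FPKM in Comb and 1.09, 1.16 and 1.09 FPKM in ELI (-0.50), and USP18 (-0.54) and PARP9 (-0.46) fell, whereas IFITM1, a membrane protein that hinders viral entry, rose by 0.50 to 34.3, 35 and 36.2 FPKM in Comb, against 22.9, 24.4 and 26.8 FPKM in ELI. Of 22 p53 targets 4 fell and 1 rose: DDB2 (-0.72) and POLH (-0.36), which act on damaged DNA, fell along with CDKN1A, and TP53INP1 rose by 0.41. Of 23 genes of glycolysis and hypoxia 3 rose and 1 fell. Hexokinase HK2 (0.34), PFKFB4 (0.30) and the glucose carrier SLC2A1 (0.28) rose, and the carrier SLC2A3 fell by 0.43. HK2 and PFKFB4 lost their calls without each of the 6 libraries in turn, with adjusted p-values up to 0.076 and 0.15, and SLC2A1 under 11 alternatives.

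Immediate early and feedback genes were mixed. Of 21 AP-1 and immediate early genes 3 fell and 0 rose, among them EGR3 at 1.04, 0.879 and 0.94 FPKM in Comb against 2.47, 2.24 and 2.27 FPKM in ELI (-0.77, SE 0.12, limma adjusted p = 0.00096), FOSL2 (-0.34) and FOSB (-0.26). FOSL2 lost its call without 3 of the 6 libraries in turn and FOSB under 6 alternatives. The phosphatase DUSP6, a brake on ERK, fell by 0.34 and its relative DUSP4 was 0.26 higher, a call lost under 8 alternatives. Stress genes of the ATF4 pathway had 2 of 26 higher (VLDLR, 0.30, and CEBPB, 0.38) and 2 lower (CHAC1, -0.41, and TRIB3, -0.40), and each of these calls was lost in at least 2 alternatives. None of the 10 tested genes of the KMT2A-fusion program and none of 20 cytosolic heat shock chaperones were called by limma, while removal of the GC and length trend left 3 of the first called higher and 4 of the second called lower.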
